A study of Mus musculus with 32 samples.

Results

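The mitochondrial genome of the mouse contributed 37 genes to the 55421 genes of the count table: all rows placed on chromosome MT, of which 13 encode proteins, 2 ribosomal RNAs and 22 transfer RNAs. The members are all rows at that position, so no measured value decided which of its genes entered. The choice itself was made with earlier results of these data known. Liver RNA came from 16 mice in 4 groups of 4 animals, and each animal gave an input library and an IP library, 32 libraries in all. The sham flox group held floxed control animals after a sham operation, aged 77, 77, 71 and 73 days in replicates 1 to 4. The hepatectomy flox group held floxed control animals after hepatectomy, aged 72 or 73 days, and the sham KO and hepatectomy KO groups held Mettl14 KO animals after either operation, also aged 72 or 73 days. The labels name no Cre line and no time between operation and sampling. METTL14 is part of the enzyme that writes N6-methyladenosine (m6A) on nuclear-encoded mRNA, and the study's title links that mark to fibrinogen synthesis and regrowth of the liver. Input libraries were prepared from bulk RNA with a stranded mRNA kit, whereas IP libraries were prepared with another kit from RNA broken to about 100 bases and pulled down with an anti-m6A antibody, so the effects of antibody, fragmentation and kit on an IP over input ratio cannot be told apart.

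Mitochondrial DNA is transcribed from both strands as long precursors, which are cut at the tRNAs that lie between most of the other genes. The resulting mRNAs encode core subunits of the respiratory chain, in which complexes I, III and IV pump protons and ATP synthase makes ATP from the gradient; all other subunits of these complexes are encoded in the nucleus. Hepatocytes hold many mitochondria, and these transcripts are among the most abundant in liver RNA. Steady-state levels of the single mRNAs also depend on how each is stabilised and degraded, which is why genes of one precursor can differ in level.

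Library totals ran from 8177746 to 12533871 counts in the inputs and from 7133726 to 24297713 in the IP libraries. The IP library of hepatectomy KO replicate 4 had the lowest total of all libraries and 6676 genes with at least 10 counts, against 10408 to 13200 in the other IP libraries of its group. Mettl14 itself had 0 counts in 16 of 16 inputs and 0 to 124 counts in the IP libraries, with 60 counts in 1 hepatectomy KO library and 38 and 52 in 2 sham KO libraries, so the targeted gene did not check the genotype labels. All 6 hepatocyte markers were found, and their summed level was 34004 to 48606 CPM (counts scaled to the library total) over the 16 inputs. In the IP libraries it was 12384 to 29890 CPM in hepatectomy KO and 30081 to 45324 CPM in hepatectomy flox, without overlap. The summed level of 6 stellate cell markers did not overlap in the same libraries either, with 357 to 479 CPM in hepatectomy KO and 144 to 201 CPM in hepatectomy flox. In the inputs of these groups the sums of each list overlapped. Hepatocyte markers had 34004 to 42257 CPM in hepatectomy KO and 39854 to 44175 in hepatectomy flox. Stellate cell markers had 134 to 470 CPM and 124 to 319 CPM, in the same order. Of the lymphocyte and neutrophil markers, Cd79a, S100a8, S100a9 and Ly6g were at 0 in every input. All of these differences stand beside the IP results below, and their part in those results was not tested. The material is bulk tissue, so fewer cells of a type and less RNA per cell cannot be told apart. In the IP libraries, recovery of a transcript by the pull-down cannot be told apart from these either.

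Of the 37 genes, 28 are on the plus strand and 9 on the minus strand, the latter being mt-Nd6 and 8 tRNAs. All 13 protein genes had counts in all 32 libraries and were tested in every comparison, as were both rRNAs. Of the 22 tRNAs, 9 passed the filter on low counts in the inputs and 12 in the IP libraries and in the fit over all libraries. The remaining members were not tested, and 9 tRNAs were tested nowhere. A total of 9 gene pairs overlap on the genome, and the longest overlaps are 43 bases between mt-Atp8 and mt-Atp6, 14 bases between mt-Nd5 and mt-Nd6 on opposite strands, and 7 bases between mt-Nd4l and mt-Nd4, so reads in these stretches could fall to either gene. The start and end of all 37 rows equal those of the RefSeq annotation of GRCm38.p6, from which the names were taken. The build of the deposited table is not given in the sources used here.

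Copies of mitochondrial DNA that sit in nuclear chromosomes are a known complication of counting these transcripts. Here, 7 rows on the minus strand of chromosome 1, between positions 24611535 and 24616197, lie in the mirrored order of mt-Co1, mt-Co2, mt-Atp6, mt-Co3, mt-Nd3, mt-Nd4l and mt-Nd4 (MT positions 5328 to 11544). The copy of mt-Co2 had a median of 1.0005 times the counts of its mitochondrial partner over 32 libraries and was within 1% of it in 27. The copy of mt-Co3, likewise, had a median ratio of 1.0016 and was within 1% of its partner in 29 of 32 libraries. For mt-Nd4l the median ratio was 0.996 and for mt-Nd3 it was 0.93. It was 1.36 for mt-Atp6, 0.48 for mt-Nd4, whose copy spans 876 bases against 1378, and 0.193 for mt-Co1, whose copy spans 492 bases against 1545. The 7 copies together held 2.33% to 2.94% of an input library. Levels per length and shares within the mitochondrial counts are therefore given for the mitochondrial rows, with the values that include the copies beside them where those differ. How the counting program treated reads that fit more than 1 place is not given in the sources used here.

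Per kilobase of gene, mt-Nd2 had the highest level in the inputs, 18666 ± 2704 CPM per kilobase (SD, n = 16), followed by mt-Nd5 with 15173 ± 2040 and mt-Nd4 with 14042 ± 1616. The complex III subunit mt-Cytb followed at 11554 ± 1299, mt-Atp8 at 10679 ± 1789 and mt-Nd1 at 10377 ± 1446 CPM per kilobase; these 3 neighbours lay within 1 SD of each other. The catalytic subunit of complex IV, mt-Co1, reached 6509 ± 1806 CPM per kilobase, mt-Co2 4978 ± 564 and mt-Co3 2661 ± 484. At the low end stood mt-Nd6, the single protein gene of the minus strand, with 1739 ± 441, and mt-Nd3 with 563 ± 385 CPM per kilobase. With the chromosome 1 copies added the order changed: mt-Nd4 came first with 20685 ± 2378 CPM per kilobase, mt-Atp6 moved from rank 7 to rank 3 with 17949 ± 1783, and mt-Nd4l from rank 9 to rank 5 with 11564 ± 2097. The members mt-Nd6 and mt-Nd3 were lowest of the protein genes either way. Both rRNAs, the RNA core of the mitochondrial ribosome, lay far below, at 38.5 ± 36.8 CPM per kilobase for mt-Rnr2 and 23.7 ± 31.1 for mt-Rnr1. The inputs were made with a stranded mRNA kit, and its recovery of the single RNAs was not tested. All of these values are therefore levels in the libraries and not in the tissue.

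**Figure D1:**
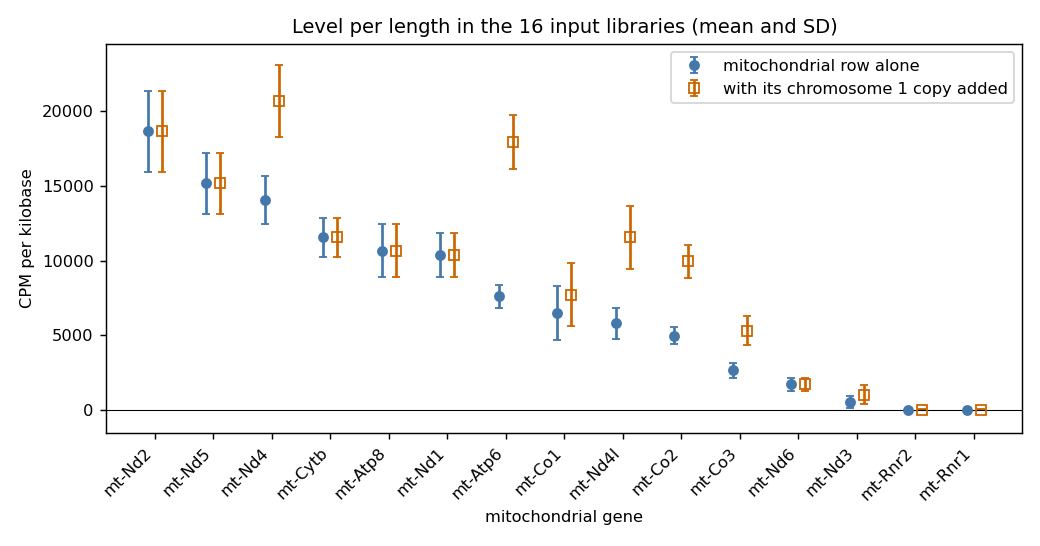
Level per length of the 13 protein genes and 2 rRNAs in the 16 input libraries, as CPM per kilobase (mean and SD), ordered from the highest to the lowest. Filled points use the mitochondrial row alone and open squares add the counts of the chromosome 1 copy: mt-Atp6 moves from 7628 to 17949 CPM per kilobase and mt-Nd4 from 14042 to 20685, while mt-Nd2, mt-Nd5, mt-Cytb, mt-Atp8, mt-Nd1, mt-Nd6 and the rRNAs have no such copy and keep one value.

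As a share of the library, the 37 genes took a similar part of every input. In sham flox inputs they held 10.9% to 11.7% of all counts (mean 11.3% ± 0.327, SD, n = 4), in sham KO inputs 10.9% to 13.7% (11.9% ± 1.29), in hepatectomy flox inputs 10.9% to 12.02% (11.5% ± 0.518) and in hepatectomy KO inputs 10.1% to 12.4% (11.5% ± 1.06). The ranges of the 4 groups overlapped, and the means differed by less than the spread within the KO groups. The IP libraries spread more widely, from 7.95% to 24.1%. Sham flox IP libraries held 12.5% ± 2.90, sham KO 10.99% ± 2.77 and hepatectomy flox 11.9% ± 1.09 of their counts in the 37 genes (SD, n = 4 each). In hepatectomy KO the values were 18.8%, 16.4%, 24.1% and 8.62% in replicates 1 to 4, with a mean of 16.97% ± 6.45. Replicates 1 to 3 lay above all 12 IP libraries of the other groups, whereas replicate 4, the library with the lowest total, lay below every hepatectomy flox library. Without replicate 4 the mean of the group was 19.75%. A sum over chosen genes was not tested, and the counting error of such a share is small against these spreads. In hepatectomy flox input replicate 1 the 95% exact binomial interval was 12.0047% to 12.0414%.

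**Figure D2:**
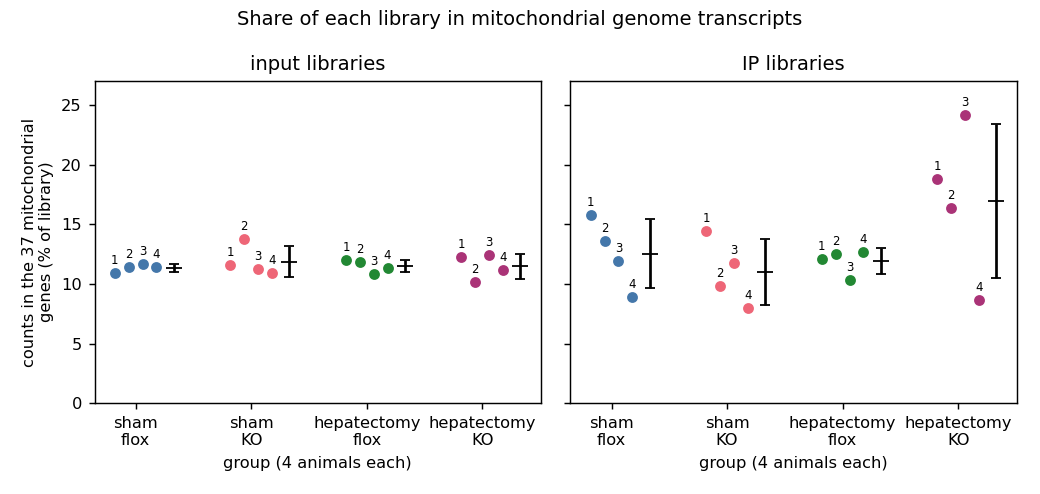
Share of each library's counts in the 37 mitochondrial genes, in percent, for the 16 input libraries (left) and the 16 IP libraries (right). Points are animals with their replicate number, and the bar beside each group gives mean and SD. Inputs lie between 10.1% and 13.7%, whereas hepatectomy KO IP libraries 1 to 3 lie between 16.4% and 24.1% and library 4 at 8.62%.

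Nearly all of this share came from the protein genes, which held 10.1% to 13.7% of an input library and 7.94% to 24.1% of an IP library. The rRNAs held at most 0.028% of an input and 0.0217% of an IP library. The 22 tRNAs held at most 0.0254% and 0.016%, respectively. Within the counts of the 13 protein genes, mt-Nd5, mt-Nd2, mt-Nd4, mt-Cytb, mt-Nd1 and mt-Co1 together took 83.8% to 88.0% in every library. This order depended on the chromosome 1 copies: with them, mt-Nd4, mt-Nd5, mt-Nd2, mt-Cytb, mt-Atp6 and mt-Co1 led by their mean over the 32 libraries, with 73.3% to 83.9% together. In sham flox inputs the mean share of mt-Atp6, a proton channel subunit of ATP synthase, was 4.24% ± 0.356 without and 8.24% ± 0.61 with its copy, and that of mt-Nd1, which has no copy, 7.96% ± 0.456 and 6.56% ± 0.345 (SD, n = 4). Animals of one group differed less in the inputs than in the IP libraries: over the 13 genes and 4 groups the median coefficient of variation was 15.3% in the inputs and 26.1% in the IP libraries. The steadiest single value was mt-Nd5 in hepatectomy flox inputs, with 27264, 28903, 28617 and 28816 CPM (coefficient of variation 2.7%). The least steady was mt-Nd3 in hepatectomy KO IP libraries, with 145, 193, 383 and 40.4 CPM (75.4%).

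In the inputs, 1 mitochondrial gene changed between groups: mt-Co1, which encodes the catalytic core of cytochrome c oxidase, was higher in hepatectomy KO than in hepatectomy flox. Its level was 9732, 7808, 8018 and 7831 CPM in hepatectomy flox and 14332, 16586, 12215 and 7978 CPM in hepatectomy KO. Replicates 1 to 3 of KO lay above all flox values and KO replicate 4 lay among them, so the groups overlapped. The log2 difference was 0.79 (SE 0.12, edgeR adjusted p = 1.87e-05), and mt-Co1 was 1 of 24 mitochondrial genes tested against a background of 0.0342% of all genes called in this comparison. Over all 8769 genes the median log2 difference was 0.46, so mt-Co1 lay 0.33 above the median gene. The inputs of these groups also differed in genes with at least 10 counts, without overlap. There were 4462 to 4950 such genes in hepatectomy flox and 5979 to 8278 in hepatectomy KO. The part of this difference in the log2 differences was not tested. The call was made in 16 of 16 fits that left out 1 animal (log2 difference 0.72 to 0.9988, the highest without KO replicate 4). It was lost with a filter at a mean of 50 CPM (log2 difference 0.69, adjusted p = 0.651) and in a fit of the 8 compared libraries alone (0.75, adjusted p = 0.14). Adding its copy on chromosome 1 left it at 0.78 (adjusted p = 7.25e-06). For fits that left out 1 animal, here and below, the share of all genes called is not given. Their calls are therefore not set against those of other genes.

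The 2 other subunits of complex IV gave no call in that comparison. For mt-Co3 the level was 2130, 1564, 2242 and 1749 CPM in hepatectomy flox and 2502, 2993, 2385 and 1989 CPM in hepatectomy KO (log2 difference 0.55, SE 0.22, edgeR adjusted p = 0.284). KO replicate 4 again lay inside the flox range. Of the complex I subunits, mt-Nd1 had 11387, 11161, 8067 and 9676 CPM in hepatectomy flox and 12257, 10245, 12670 and 9015 in hepatectomy KO, with overlapping groups and a log2 difference of 0.33 (SE 0.10, adjusted p = 0.284) that was below that of the median gene. Of 13 protein genes, 11 had a positive and 2 a negative log2 difference in this comparison, and 3 lay above the median gene. This split turned with the scaling: 5 were positive and 8 negative without normalization factors and with upper-quartile factors, 6 and 7 with DESeq2, and 8 and 5 with the filter at a mean of 50 CPM. In edgeR 3 protein genes and 14% of all genes had an unadjusted p under 0.05, and DESeq2 called 2 members and 12% of all genes. Without KO replicate 4, mt-Nd1 was called too (0.45, adjusted p = 0.000768), and it was called in 7 of the 16 fits that left out 1 animal.

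The level of mt-Co1 in the other input groups did not separate genotypes. Sham flox had 13024, 8408, 8183 and 8738 CPM and sham KO 9330, 6451, 11234 and 11032 CPM, ranges that overlap. Between KO and flox after sham operation its log2 difference was 0.24 (SE 0.12, edgeR adjusted p = 0.507). Between hepatectomy and sham it was 0.39 (SE 0.12, adjusted p = 0.999991) in KO and -0.16 (SE 0.12, adjusted p = 0.719) in flox, and the interaction of genotype and surgery was 0.55 (SE 0.17, adjusted p = 0.31). For the interaction mt-Co1 was called in 12 of 16 fits that left out 1 animal (0.54 to 0.77), and not without sham flox replicate 1, sham KO replicate 2, hepatectomy flox replicate 2 or hepatectomy KO replicate 2. The difference between hepatectomy and sham in KO was called in 8 of 16 such fits, with 0.56 (adjusted p = 1.12e-06) without hepatectomy KO replicate 4.

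**Figure D3:**
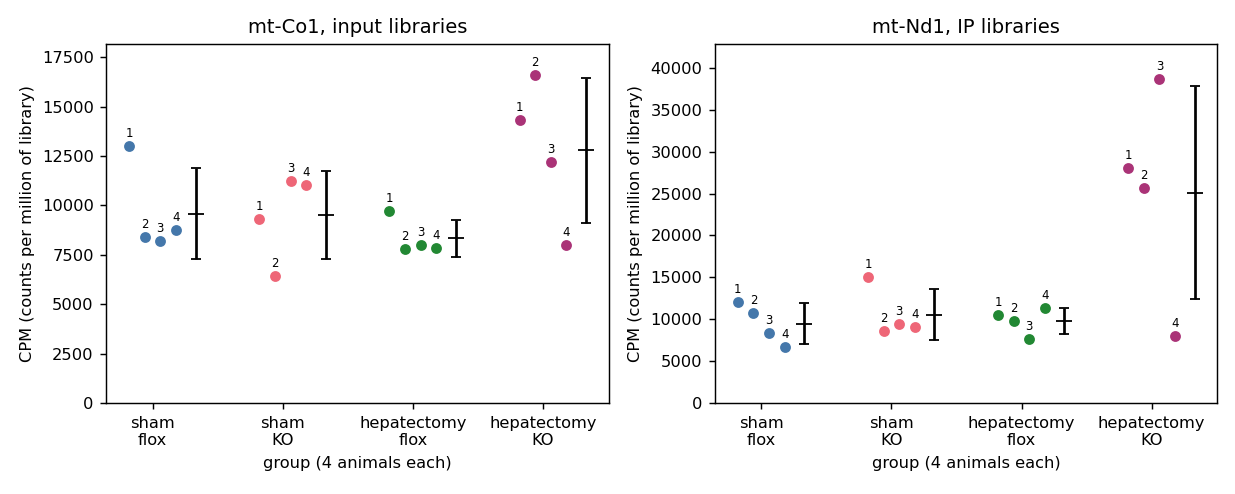
Level of mt-Co1 in the 16 input libraries (left) and of mt-Nd1 in the 16 IP libraries (right), in CPM, by group. Points are animals with their replicate number, and the bar beside each group gives mean and SD. For mt-Co1 hepatectomy KO animals 1 to 3 lie at 12215 to 16586 CPM against 7808 to 9732 in hepatectomy flox, and for mt-Nd1 they lie at 25671 to 38708 CPM against 7710 to 11344, while animal 4 lies within the flox range in each panel.

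Between sham KO and sham flox inputs, none of 24 tested mitochondrial genes was called, against 0.0114% of all genes. All 13 protein genes had a positive log2 difference (median 0.35, range 0.13 to 0.51), but the median over all 8769 genes was 0.29, and 9 of the 13 lay above it. The scaling set the direction of some members: without normalization factors 11 of 13 were positive, with a median of 0.09 against 0.04 for all genes. The TMM factors, which correct for library composition, were 1.07 to 1.13 in sham flox and 0.874 to 0.97 in sham KO. The smallest adjusted p was 0.072, for mt-Nd5 and mt-Cytb. The level of mt-Nd5 was 25700, 27352, 28983 and 25197 CPM in sham flox and 26907, 38258, 25717 and 24736 CPM in sham KO (log2 difference 0.38, SE 0.09). Only KO replicate 2 lay above the flox range in CPM. For mt-Cytb, the subunit of complex III, the values were 11680, 12539, 12243 and 14395 CPM against 13032, 16375, 12841 and 12231 CPM (0.37, SE 0.09), again with overlap. By unadjusted p under 0.05, edgeR counted 8 protein genes and 9.17% of all genes, and DESeq2 called no member and 7.45% of all genes. However, mt-Nd5 and mt-Cytb were each called in 15 of 16 fits that left out 1 animal, the exception being sham KO replicate 2, and mt-Nd2 in 14. In such fits mt-Nd4 was called in 13, mt-Nd1 in 4 and mt-Co1 in 1. No share of all genes stands beside these counts, so they do not set the members apart.

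Hepatectomy against sham gave no call among the 24 tested members in flox inputs, where 0% of all 8769 genes were called, or in KO inputs, where 0.0114% were. By unadjusted p under 0.05, edgeR counted 2 protein genes in flox (17% of all genes) and 3 in KO (2.76% of all genes). DESeq2 called 1 member in flox (15.4% of all genes) and none in KO (1.69%). For mt-Nd2 in KO the log2 difference was -0.27 (SE 0.09, edgeR adjusted p = 0.999991, as for all 13 protein genes). It was called in 13 of 16 fits that left out 1 animal, all but those without sham KO replicate 2, hepatectomy flox replicate 2 or hepatectomy KO replicate 2. The call thus depended on the animals fitted. Without the share of all genes called in those fits, the count does not set mt-Nd2 apart. In KO, mt-Nd3 was the single protein gene whose groups did not overlap: it had 125, 146, 139 and 151 CPM after sham operation and 250, 578, 438 and 152 CPM after hepatectomy. The lowest hepatectomy value lay next to the highest sham value, the log2 difference was 1.31 (SE 0.91, edgeR adjusted p = 0.999991), and 1.64% of all tested genes showed the same separation. The interaction of genotype and surgery gave no call in the inputs, where 0% of all genes were called, and 3 protein genes and 12.3% of all genes had an unadjusted p under 0.05 by edgeR, while DESeq2 called 1 member and 14.1% of all genes.

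In the IP libraries alone, no mitochondrial gene passed the threshold in the fit over 16 libraries. The nearest was mt-Nd1, a membrane subunit of complex I, in hepatectomy KO. Its IP level was 10467, 9864, 7710 and 11344 CPM in hepatectomy flox and 28026, 25671, 38708 and 8052 CPM in hepatectomy KO. The first 3 KO animals were above every flox animal and replicate 4 was inside the flox range. The log2 difference was 1.08 (SE 0.34, edgeR adjusted p = 0.126), none of 27 tested members was called, and 1.5% of all genes were called in this comparison. Without KO replicate 4 the log2 difference was 1.37 and mt-Nd1 was called (adjusted p = 0.00431). It was also called without normalization factors (1.35, adjusted p = 0.0355), with DESeq2 (1.19, adjusted p = 0.0187) and with a filter at a mean of 50 CPM (1.34, adjusted p = 0.0266). Against sham KO IP libraries, with 15055, 8605, 9464 and 9133 CPM, the log2 difference was 1.17 (SE 0.34, adjusted p = 0.136), with 0.635% of all genes called, and 1.46 without hepatectomy KO replicate 4 (adjusted p = 0.00522). By unadjusted p under 0.05, edgeR counted 2 protein genes in each of these comparisons, where 13.3% and 9.46% of all genes passed that limit. DESeq2 called 2 members against flox (5.77% of all genes) and 1 against sham (2.95%), mt-Nd1 among them each time.

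In 9 of the 13 protein genes the first 3 hepatectomy KO animals had IP levels above every sham KO animal and replicate 4 did not. The exceptions were mt-Co1, mt-Co3, mt-Cytb and mt-Nd6, in which 1 or 2 of these 3 animals also lay within the sham KO range. This split by replicate was made with the values known, and the share of all tested genes that show it is not given. The library shares of the 37 genes split the same way, at 18.8%, 16.4%, 24.1% and 8.62% against at most 14.4% in sham KO. The 13 genes are therefore not separate observations. All 13 had a positive log2 difference between hepatectomy KO and sham KO IP libraries (median 0.56, all genes -0.10), and 13 of 13 were positive under each of the 4 other scalings and the stricter filter too. For mt-Nd2, another complex I subunit, the IP values were 32833, 17568, 26163 and 19149 CPM in sham KO and 41653, 35120, 47909 and 16689 CPM in hepatectomy KO. Its replicates 1 to 3 after hepatectomy were above all sham values, and replicate 4 was below them. For mt-Co2 the values were 4471, 3053, 3696 and 2521 CPM against 6611, 6471, 9993 and 3005 CPM (0.83, SE 0.31, edgeR adjusted p = 0.334), with the same animal apart. Between hepatectomy KO and hepatectomy flox IP libraries, mt-Nd4l was the single protein gene whose groups did not overlap, with 2916, 2776, 3295 and 2116 CPM in KO and 2018, 1968, 1569 and 1911 CPM in flox (0.30, SE 0.28, adjusted p = 0.806). The same separation was seen in 4.37% of all tested genes.

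Among the flox animals, the IP level of mt-Nd5 was 25678, 24892, 25656 and 17192 CPM after sham operation and 27672, 33728, 26350 and 27196 CPM after hepatectomy. These groups did not overlap, a separation shared by 2.45% of all tested genes, and the log2 difference was 0.36 (SE 0.31) with no call. None of 27 members was called in this comparison (0.0285% of all genes called) and none between sham KO and sham flox (0.0927%) or in the interaction (0.0285%). By unadjusted p under 0.05, edgeR counted 1, 0 and 2 protein genes in these 3 comparisons, against 6.93%, 5.69% and 7.88% of all genes. DESeq2 called 1, 0 and 1 members, against 1.95%, 1.33% and 1.91% of all genes.

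The IP over input ratio within each animal, before any scaling across libraries, lay on the same side for some members in most animals of all groups. It was below 0 on the log2 scale for mt-Nd6 in 15 of 16 animals (median -0.88, range -2.05 to 0.34), for mt-Co3 in 14 of 16 (median -0.62) and for mt-Nd3 in 13 of 16 (median -0.51). It was above 0 for mt-Nd2 in 13 of 16 (median 0.28), for mt-Co2 in 13 of 16 (median 0.13) and for mt-Atp8 in 12 of 16 (median 0.41). The ratio of mt-Nd1 was above 0 in 8 animals and below in 8. For mt-Nd6 the 4 sham KO animals had -1.58, -1.63, -1.33 and -2.05, and the 4 hepatectomy flox animals had -0.35, -0.19, -1.14 and -0.75. The single animal above 0 was hepatectomy KO replicate 3, with 0.34. A ratio here is log2 of IP CPM over input CPM with 0.5 CPM added to each, and the counts of animals describe these libraries without a test.

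**Figure D4:**
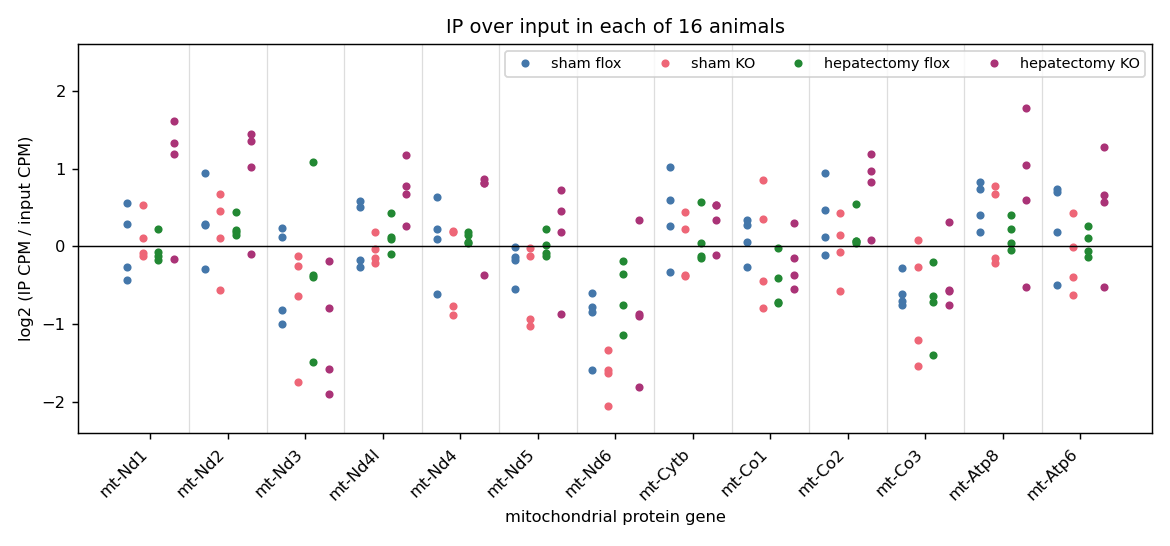
Log2 of IP CPM over input CPM for the 13 protein genes in each of 16 animals, coloured by group; the line marks a ratio of 1. Ratios of mt-Nd6 lie below the line in 15 of 16 animals and those of mt-Co3 in 14 of 16. In hepatectomy KO, 3 of 4 ratios of mt-Nd1 lie between 1.19 and 1.61 and the fourth at -0.16.

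In the fit over 32 libraries, a gene counted as enriched or depleted in IP at an adjusted p under 0.05 and an absolute log2 ratio of at least 1, and none of 27 tested members met this in any group. The background was 0.258% of all 14328 genes in sham flox, 1.21% in hepatectomy flox, 0.0209% in sham KO and 0.328% in hepatectomy KO. By unadjusted p under 0.05, edgeR counted 6, 6, 4 and 5 of the 13 protein genes in these groups, in the same order, against 30.3%, 34.9%, 20.5% and 19.9% of all genes. DESeq2 called 1, 2, 2 and 2 members, against 24.7%, 28.8%, 14.5% and 14.2% of all genes, of which mt-Nd1 and mt-Nd2 in hepatectomy KO and mt-Nd6 in sham KO were protein genes and the others tRNAs. The median gene itself had a log2 ratio of 0.95 in sham flox, 1.27 in hepatectomy flox, 0.71 in sham KO and 0.31 in hepatectomy KO. In the first 3 of these groups all 13 protein genes lay below the median gene, and in hepatectomy KO 7 of 13 lay above it. With a filter at a mean of 50 CPM the order of the medians turned in sham flox (0.23 for the 13 against 0.11 for all genes) and hepatectomy flox (0.18 against 0.16). It stayed in sham KO (-0.15 against -0.0009) and in hepatectomy KO (0.57 against -0.04). Genes with at least 10 counts numbered 4176 to 9354 in the inputs and 6676 to 16846 in the IP libraries. The part of this difference in the median ratios was not tested.

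By adjusted p alone, 3 ratios passed. In hepatectomy KO the ratio of mt-Nd1 was 0.96 (SE 0.21, edgeR adjusted p = 0.00848), beside per-animal ratios before scaling of 1.19, 1.33, 1.61 and -0.16. That of mt-Nd2 was 0.79 (SE 0.18, adjusted p = 0.0134), beside 1.02, 1.45, 1.36 and -0.10. Replicate 4 was the exception in each, and 0.0419% of all genes were higher by adjusted p alone in this group. Without replicate 4 the ratio of mt-Nd1 was 1.45 and that of mt-Nd2 1.31, past both limits, as were mt-Atp8 (1.23) and mt-Co2 (1.07). Past both limits mt-Nd1 also came without hepatectomy KO replicate 1 (1.17), sham flox replicate 1 (1.20) or hepatectomy flox replicate 1 (1.06), and mt-Nd2 without sham flox replicate 1 (1.02). The adjusted p of mt-Nd1 was 0.0606 without hepatectomy KO replicate 2 and 0.0569 without replicate 3, and that of mt-Nd2 was 0.115 and 0.052. In sham flox mt-Cytb passed with 0.69 (SE 0.16, edgeR adjusted p = 0.0305), in a background of 0.251% higher. Its per-animal ratios before scaling were 1.02, 0.59, 0.26 and -0.33, with a mean of 0.38 (SD 0.57). The fitted ratio of mt-Cytb was below that of the median gene, 0.95. With upper-quartile factors its ratio was 0.07 (adjusted p = 0.968) and without the sham flox animals aged 77 days it was 0.22 (adjusted p = 0.454); its adjusted p was 0.137 without sham flox replicate 1 and 0.103 without replicate 2. For mt-Nd6, which had the lowest fitted ratio of the protein genes, sham KO gave -1.71 (SE 0.45, adjusted p = 0.175).

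The difference of the IP over input ratio between groups gave no call among 27 members. The background was 0.0209% of all genes for KO against flox after sham, 0.712% for KO against flox after hepatectomy, 0.181% for hepatectomy against sham in flox, 0.0349% in KO and 0.0419% for the interaction. By unadjusted p under 0.05, edgeR counted 6, 1, 0, 7 and 2 protein genes in these comparisons, against 14.8%, 21.4%, 20.4%, 11.9% and 14.4% of all genes. DESeq2 called 1, 2, 3, 1 and 2 members, against 17.3%, 22.6%, 23.4%, 11.2% and 22.3% of all genes. With the animal as a block, which uses the pairing of input and IP by animal, calls appeared, and all of them were lost when the block was combined with a filter at a mean of 50 CPM. Of the 16 inputs, 7 correlated best with their own IP library. For KO against flox after sham, 4 members had lower ratios in KO: mt-Nd5 by -0.70 (adjusted p = 1.08e-13), mt-Nd4 by -0.80 (1.79e-12), mt-Cytb by -0.81 (1.04e-07) and mt-Nd2 by -0.53 (1.1e-05), where 0.0838% of all genes were called lower. The sign of these 4 held under each scaling tried with the block, but only mt-Nd4 was called without normalization factors (-0.40, adjusted p = 0.0256) and none with upper-quartile factors. For hepatectomy against sham in KO, 4 members had higher ratios: mt-Nd4 by 0.78 (1.45e-11), mt-Nd2 by 0.70 (7.69e-11), mt-Nd5 by 0.58 (5.85e-09) and mt-Nd1 by 0.83 (4.14e-06), where 0.0489% of all genes were called higher. These 4 were also called with the block and no normalization factors, upper-quartile factors or scaling without the mitochondrial genes. Before scaling, hepatectomy KO ratios were 0.82, 0.81, 0.86 and -0.37 for mt-Nd4 (SD 0.60, block SE 0.10). For mt-Nd5 they were 0.19, 0.46, 0.72 and -0.87 (SD 0.70, block SE 0.08). In each of the 4 members replicates 1 to 3 lay above all sham KO animals and replicate 4 did not. These p-values therefore do not measure the spread between animals. For KO against flox after hepatectomy the direction depended on the scaling. The block gave mt-Nd5 at -0.44 (5.23e-05), with 0.335% of all genes called lower, but the block gave it at 0.13 (adjusted p = 1) without normalization factors and at 0.56 (adjusted p = 0.001004) with upper-quartile factors. Of the 13 protein genes 5 were positive and 8 negative with the block and TMM factors, 11 and 2 without factors, and 12 and 1 with upper-quartile factors. Without the block the split was 6 and 7 with TMM factors, 11 and 2 without factors, 12 and 1 with DESeq2 and 13 and 0 with upper-quartile factors. For the interaction it gave mt-Nd2 at 0.66 (0.000603), mt-Nd4 at 0.66 (0.00268) and mt-Nd1 at 0.80 (0.0418), and these 3 were all the genes called higher (0.0209%). Without the block but also without hepatectomy KO replicate 4, mt-Nd1 (1.32), mt-Nd4 (1.14), mt-Nd2 (1.13) and mt-Nd5 (1.04) were called higher after hepatectomy in KO, and mt-Nd1 was called in the interaction (1.37) and against flox (1.15). Each of these calls was made in only 1 of 16 fits that left out 1 animal. The share of all genes called in that fit is not given. For KO against flox after sham, mt-Cytb was called without sham flox replicate 4 (-1.02) or sham KO replicate 1 (-1.09). Per-animal ratios of mt-Nd5 were -0.001, -0.14, -0.18 and -0.55 in sham flox and -0.12, -1.01, -0.02 and -0.93 in sham KO. Of the KO animals, 2 lay below the flox range and 2 within it. The SDs of these ratios were 0.24 in sham flox and 0.52 in sham KO. The block gave the fitted difference an SE of 0.08, and of 0.36 with the 50 CPM filter. Per-animal ratios of mt-Nd4 were 0.64, 0.22, 0.10 and -0.61 in sham flox and 0.20, -0.76, 0.19 and -0.88 in sham KO, which overlap as well.

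The composition of the mitochondrial counts needs no scaling across libraries. In IP libraries, mt-Nd1 took 8.66%, 7.91%, 7.49% and 8.96% of the counts of the 13 protein genes in hepatectomy flox and 15.0%, 15.7%, 16.04% and 9.34% in hepatectomy KO. All 4 KO animals were above all 4 flox animals, with replicate 4 nearest to them. The share of mt-Co1 in the same libraries was 4.87%, 4.74%, 4.74% and 6.09% in flox and 6.92%, 6.93%, 6.23% and 7.16% in KO, also without overlap. For mt-Nd5 the order was the opposite, with 22.9%, 27.04%, 25.6% and 21.5% in flox and 16.7%, 16.8%, 20.7% and 18.3% in KO. In sham IP libraries the share of mt-Nd1 was 7.70%, 7.97%, 7.05% and 7.54% in flox and 10.5%, 8.80%, 8.03% and 11.5% in KO, again without overlap. The other 10 genes overlapped between KO and flox after hepatectomy, and the other 12 after sham operation. These shares sum to a fixed total, so they do not move independently of each other; they were not tested. With the chromosome 1 copies the same genes stood without overlap in these 2 comparisons, with mt-Nd1 at 6.13% to 7.44% in hepatectomy flox and 7.63% to 13.1% in hepatectomy KO and mt-Co1 at 4.51% to 5.89% and 6.33% to 7.14%. No share over all genes can stand beside them because they are defined within the 13.

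In the inputs the share of mt-Co1 among the 13 protein genes was 8.10%, 6.61%, 7.40% and 6.93% in hepatectomy flox and 11.7%, 16.4%, 9.89% and 7.17% in hepatectomy KO. Replicates 1 to 3 of KO were above the flox range and replicate 4 within it. Means were 8.51% ± 2.32 in sham flox, 8.23% ± 2.54 in sham KO, 7.26% ± 0.648 in hepatectomy flox and 11.3% ± 3.90 in hepatectomy KO (SD, n = 4 each). With the copies they were 8.29% ± 2.13, 8.03% ± 2.48, 7.12% ± 0.71 and 10.9% ± 3.51. No gene's input share separated KO from flox after either operation. The one input share whose groups did not overlap was that of mt-Atp8, a small subunit of ATP synthase, with 1.78%, 1.68%, 1.75% and 1.74% in sham flox and 2.58%, 1.86%, 1.81% and 2.09% in hepatectomy flox. In IP libraries the share of mt-Co2 was 3.11%, 3.12%, 3.14% and 3.17% in sham KO and 3.53%, 3.96%, 4.14% and 3.49% in hepatectomy KO, the single share without overlap in that comparison. With its copy mt-Co2 held 5.08% to 5.28% in sham KO and 5.70% to 6.66% in hepatectomy KO. Counted with the copies, the input shares without overlap were again that of mt-Atp8 alone, and in IP libraries the share of mt-Nd5 also separated hepatectomy flox (17.8% to 22.4%) from sham flox (13.2% to 17.7%).

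The RNAs of the mitochondrial translation apparatus varied widely between libraries. Recovery of rRNAs and tRNAs by the mRNA kit of the inputs was not tested, so these are levels in the libraries. Of the rRNAs, mt-Rnr2 had a median of 36.6 CPM (range 0.927 to 182) in the inputs and 24.4 CPM (1.02 to 95.5) in the IP libraries. The smaller mt-Rnr1 had a median of 9.89 CPM (0 to 102) in the inputs and 21.0 CPM (0 to 137) in the IP libraries. Hepatectomy flox input replicate 3 alone held 102 CPM of mt-Rnr1, while the other inputs of its group held at most 0.674 CPM. Neither rRNA was called in any of 19 comparisons, and the smallest edgeR adjusted p was 0.499.

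Among the tRNAs, mt-Tw (for tryptophan) reached the highest level, 112 CPM in 1 input, with a median of 0.545 CPM over the inputs and counts in 12 of 16. In the IP libraries mt-Tw and mt-Tt (for threonine) had counts in 16 of 16, whereas mt-Tt had counts in 4 of 16 inputs. The tRNA mt-Ts1 (for serine) had the highest median in the inputs, 31.1 CPM, and mt-Tm (for methionine) had the highest median in the IP libraries, 16.7 CPM, against 0.145 CPM in the inputs. For mt-Tf and mt-Ta, the inputs held no count in any library, which allows at most 3 counts in each. Of 22 tRNAs, 11 had counts in more IP than input libraries, 7 in fewer and 4 in equally many. No tRNA was called by edgeR in any of 19 comparisons (smallest adjusted p = 0.0665). Fitted log2 ratios of tRNAs with groups at 0 depend on the prior count and are not given.

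The nuclear partners of these transcripts were much less abundant. A list of 77 nuclear-encoded subunits of the respiratory complexes had 75 members found by name, and their summed level was 4356 ± 866 CPM in sham flox inputs, 3856 ± 707 in sham KO, 3471 ± 660 in hepatectomy flox and 4588 ± 715 in hepatectomy KO (SD, n = 4 each). The 13 mitochondrial protein genes summed to 113336 ± 3254 CPM in sham flox inputs, so that the ratio of mitochondrial to nuclear subunit counts was 26.98 ± 6.47 there. This ratio was 32.2 ± 10.6 in sham KO, 33.9 ± 6.23 in hepatectomy flox and 25.6 ± 5.42 in hepatectomy KO inputs. The ranges of the 4 groups overlapped, although the means after hepatectomy lay further apart than the SD of either group; the ratio was not tested. In the IP libraries it was 31.6 ± 9.79, 27.9 ± 11.1, 39.4 ± 2.64 and 33.1 ± 9.87, in the same order.

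Together 8 lists covered the nuclear genes that act with the mitochondrial genome, and of their 129 genes 125 were found. In the inputs 108 were tested and none was called in any of 5 comparisons, and in the IP libraries alone 122 were tested and none was called. In the fit over 32 libraries 124 were tested, and the single gene called was Ndufs5, an accessory subunit of complex I. Its ratio in hepatectomy flox rested on 722, 605, 424 and 634 IP counts and 0 counts in all 4 inputs, and it was called higher there (edgeR adjusted p = 0.024) and lower in the difference of KO against flox after hepatectomy (adjusted p = 0.0406). Both fitted values rest on a group at 0 and no fold is given. Hepatectomy KO inputs had 1022, 458, 36 and 1183 counts of Ndufs5.

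By list, values are given for the member with the highest input level, between hepatectomy KO and hepatectomy flox inputs. Of the nuclear complex I subunits 34 of 36 were tested, with a median log2 difference of 1.03, and Ndufa10 had 0.41 (SE 1.0467). All 4 complex II subunits were tested (median 0.28), and Sdha, the flavoprotein of succinate dehydrogenase, had 1.21 (SE 1.34). All 9 complex III subunits were tested (median 1.10), and Uqcrq had 0.24 (SE 1.04). Of 11 complex IV subunits 10 were tested (median -0.06), and Cox6b1 had 0.75 (SE 1.41). Of 17 ATP synthase subunits 16 were tested (median 0.46), and Atp5b, the catalytic beta subunit, had 1.07 (SE 0.65, adjusted p = 0.583). Of 15 genes of mitochondrial DNA transcription and upkeep 9 were tested (median 0.48), and Tfam, which packages mitochondrial DNA and starts its transcription, had -2.25 (SE 2.26). Of 31 genes of mitochondrial RNA processing and stability 21 were tested (median 0.47), and Grsf1, a protein of mitochondrial RNA granules, had 0.01 (SE 1.89). Of 6 regulators of mitochondrial biogenesis 5 were tested (median -0.14), and Pprc1 had -1.58 (SE 2.38). The median over all genes in this comparison was 0.46, and the standard errors of these 8 genes ran from 0.65 to 2.38, against 0.12 for mt-Co1.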

How the data were processed

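Liver RNA of 16 mice was sequenced as 32 libraries. The submitters' processing notes name fastp and STAR (not given in the sources used here: versions, counting program, strand setting, annotation and build). The authors deposited estimated counts (expected counts, with 1.33% to 8.22% of a column's values not whole), which were rounded here. Input totals were 8177746 to 12533871 counts and IP totals 7133726 to 24297713. Exact binomial intervals (95%) and the floor of 3 counts for a count of 0 cover counting error only, since PCR reads are not independent molecules. Groups came from the labels' titles. Names came from positions matched to RefSeq genes of GRCm38.p6 (34392 genes named).

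Comparisons used edgeR 4.0.16 in R 4.3.3: TMM factors, filterByExpr (minimum count 10), 1 coefficient per group, estimateDisp, quasi-likelihood tests and Benjamini-Hochberg adjustment over all tested genes, at 0.05. Inputs (8769 genes) and IP libraries (14020 genes) were fitted over 16 libraries each, and IP over input over 32 (14328 genes), where a call also needed an absolute log2 of 1. The procedure was tested on simulated data with some genes changed by known folds and the same spread for all genes. Only KO against flox after sham was checked there. No block was used, so the simulation does not bear on the fits with blocks. DESeq2 1.42.0, other scalings and filters, fits without single animals and fits with blocks were alternatives. All 37 members could be named; genes of other lists were named by highest input level or by call. Members and lists were chosen with earlier results of these data known. The labels number each animal separately, so animals are the replicates in each test. In edgeR the spread of a gene is estimated with help from the other genes. A small p-value is therefore not a measure of the spread between animals for that gene alone. Input and IP of an animal share a code in the labels, which is the pairing used for the animal block. Over 1168 abundant genes, their deviations from the group means had correlations of -0.0632 to 0.108 (median 0.0242), and 7 of 16 inputs correlated best with their own IP library.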

Additional observations from a re-analysis of the deposited data

Results flagged for a closer look

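In 8 of 112 groups of 4 libraries tested over the 13 protein genes and the library share, the highest or lowest library stood apart by Dixon's criterion; chance alone gives about 1 in 20. For mt-Co1 these were sham flox input replicate 1 (13024 CPM, others 8183 to 8738) and hepatectomy flox input replicate 1 (9732 CPM, others 7808 to 8018). For mt-Nd5 they were sham flox IP replicate 4 (17192 CPM, others 24892 to 25678) and sham KO input replicate 2 (38258 CPM, others 24736 to 26907). Sham KO input replicate 2 was also apart for mt-Atp6 (6474 CPM, others 4965 to 5094). In IP libraries, sham KO replicate 1 was high for mt-Nd1 (15055 CPM, others 8605 to 9464), hepatectomy flox replicate 3 low for mt-Nd4 (17639 CPM, others 21561 to 22026) and hepatectomy KO replicate 3 high for mt-Nd6 (1096 CPM, others 318 to 416). None of these is the library of hepatectomy KO replicate 4.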

How the results depend on the processing

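Counts of mitochondrial genes called are given per comparison. In this section the share of all genes called stands beside the DESeq2 counts alone. The other counts therefore do not show whether these members were called more often than other genes. DESeq2 called 1, 2, 2 and 2 for IP over input in sham flox, hepatectomy flox, sham KO and hepatectomy KO; 1, 2, 3, 1 and 2 for the ratio differences (KO against flox after sham and hepatectomy, hepatectomy against sham in flox and KO, interaction); 2, 1 and 1 for input KO against flox after hepatectomy, hepatectomy against sham in flox and interaction; and 2, 1, 1 and 1 for the 4 IP comparisons other than KO against flox after sham. DESeq2 called 1.33% to 28.8% of all genes, and most of its mitochondrial calls were tRNAs. Without a low-count filter the counts were 4, 1, 4 and 3 (ratio differences, without flox surgery), 3, 2 and 1 (input KO against flox after sham, hepatectomy against sham in KO, interaction) and 2, 1, 5 and 1 (IP). Without factors they were 2 (IP over input, hepatectomy KO), 1 (ratio difference, KO against flox after hepatectomy) and 1 (the same in IP). Upper-quartile factors gave 1 in sham KO IP over input (mt-Nd5, -1.31). A 50 CPM filter gave 1 in hepatectomy KO IP over input, 0 in input KO against flox after hepatectomy, and 1 each in IP for that contrast and for hepatectomy against sham in KO. Without the sham flox animals aged 77 days the counts were 1 (hepatectomy KO IP over input), 1 and 3 (ratio differences, KO against flox after hepatectomy and surgery in KO) and 3, 2, 4 and 1 (inputs without flox surgery).

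The animal as a replicate block gave 4, 1, 4 and 3 ratio differences (in the order above, without flox surgery) and changed no other call. For the block combined with other factors or the filter, the share of all genes called is not given. Counts from those fits cannot be set against other genes. Combined with the block after seeing the data, no factors gave 1, 3, 4 and 5, upper-quartile factors 0, 5, 5 and 5, scaling without the mitochondrial genes 4, 1, 4 and 3, and the 50 CPM filter 0 in each; no factors also gave 1 for hepatectomy KO IP over input (mt-Nd1) and the filter 1 for sham KO (mt-Nd6). The replicate number as a block gave 5 for input KO against flox after sham, 2 for surgery in KO and 2 for the interaction; same-numbered animals of different groups had correlations of -0.135 to 0.449 (median -0.0172), so the number was not taken as a pairing. The 8 compared libraries alone gave 0 for input KO against flox after hepatectomy. Added after seeing the data, legacy = FALSE gave 1 in input KO against flox after sham and 1 each in IP KO against flox after hepatectomy and surgery in KO, and adding the chromosome 1 copies gave 1 in the first (mt-Atp6, 0.42). The planned legacy = TRUE fit equals the reported one. Scaling without the mitochondrial genes moved 0 of 19 counts. The cause of these differences was not tested.

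Leaving out 1 animal gave 0 to 4 calls in hepatectomy KO IP over input and for surgery in KO among ratio differences, 0 to 1 in the other ratio differences (0 in flox surgery), 0 to 5, 1 to 5, 0 to 3 and 0 to 2 in inputs (KO against flox after sham and hepatectomy, surgery in KO, interaction), 0 to 1 in IP KO against flox after hepatectomy and surgery in KO, and 0 elsewhere. Input shares of the library ran from 11.24% to 11.5%, 11.24% to 12.19%, 11.33% to 11.71% and 11.18% to 11.93% (sham flox, sham KO, hepatectomy flox, hepatectomy KO), and IP shares from 11.45% to 13.75%, 9.841% to 12%, 11.63% to 12.42% and 14.58% to 19.75%. The mt-Co1 share of the protein genes in inputs ran from 7.354% to 9.004%, 7.593% to 9.407%, 6.983% to 7.48% and 9.593% to 12.68%. With the 10 most abundant nuclear genes out of the total, input means were 13.67%, 14.34%, 14% and 13.63%, and IP means 14.86%, 12.87%, 14.58% and 19.02%; with the copies they were 13.77%, 14.5%, 14.02% and 14.1%, and 15.37%, 13.38%, 14.42% and 20.78%.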
